A study of Mus musculus with 12 samples.

Results

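Counts of 10 genes of the primitive endoderm were followed in mouse embryonic stem cells. The genes are 5 transcription factors (Gata6, Gata4, Sox17, Sox7 and Foxa2), the receptor Pdgfra, the endocytic adaptor Dab2 and 3 basement membrane chains (Lama1, Col4a1 and Col4a2). They were taken by symbol, and all 10 were among the 31641 symbols of the deposited count table. RNA-seq was done on 4 lines of C57BL/6 blastocyst-derived cells. WT-1 and WT-2 are wild type. Mut-1 and Mut-2 carry the genotype given as Tin2 S341X, a change in Tinf2, whose product TIN2 is a subunit of the shelterin complex at telomeres. No age, drug treatment or time course enters the groups, and the labels do not say whether the lines of a genotype came from separate embryos or clones. All 4 lines were grown with serum and LIF on mouse embryonic fibroblasts (feeders), and total RNA was taken from cells on those feeders, so each library can hold feeder RNA. The submitters call the 3 libraries of each line technical replicates. The line was therefore the replicate of the genotype, with n = 2 lines each.

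The primitive endoderm is the layer of the late blastocyst that borders the cavity and gives rise to the parietal and visceral endoderm of the yolk sacs. FGF signalling through ERK favours Gata6 over Nanog in the inner cell mass, and Gata6 stands upstream of Pdgfra, Sox17, Gata4 and Sox7 during the fate's onset. Dab2 is needed for the cells to form an ordered epithelium, and laminin and type IV collagen are secreted in bulk into the membrane beneath it. Stem cell cultures with serum and LIF are known to hold a minority of cells that turn on genes of this programme. Several of the 10 genes are also used elsewhere: fibroblasts express Pdgfra, Dab2, Col4a1 and Col4a2, and endothelium expresses Sox7 and Sox17. In bulk RNA, more cells of a type and more RNA per cell cannot be told apart.

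Libraries held 14766477 to 17891894 counts, with 22713 to 24070 genes detected. Tinf2 was at 57.7 to 69.2 CPM (counts scaled to a common library total after TMM normalisation) in the 6 wild-type libraries and at 19.7 to 30.1 CPM in the 6 mutant libraries, without overlap. WT-1 replicates 1 and 2 were the closest libraries of a line. The chi-square per degree of freedom of their counts was 1.66, against 12.01 to 42.4 for other pairs of libraries within a line. That is still more than sampling noise gives, and both were kept. The cells carried pluripotency genes at high level, with means per kilobase of exon of 355 CPM for Nanog, 196 CPM for Sox2 and 136 CPM for Pou5f1. Genes of later visceral endoderm were close to 0, with a mean of 0.026 CPM per kilobase for Afp and 0.013 CPM per kilobase for Ttr.

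The 10 genes spanned a wide range of levels per length. Mean CPM per kilobase of exon over the 12 libraries was 25.5 for Col4a1, 23.9 for Col4a2 and 7.21 for Lama1. It was 2.86 for Gata4, 1.90 for Dab2, 0.718 for Pdgfra and 0.532 for Sox7. The lowest levels were 0.319 for Sox17, 0.210 for Gata6 and 0.069 for Foxa2. Between neighbours in this order, the library ranges separated only at Lama1. Its 5.70 to 9.57 CPM per kilobase lay below the lowest Col4a2 library at 16.7 and above the highest Gata4 library at 4.99. All other neighbours overlapped. Gata4 thus stood above Gata6 in each library, by 8.57- to 19.9-fold per kilobase.

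**Figure D1:**
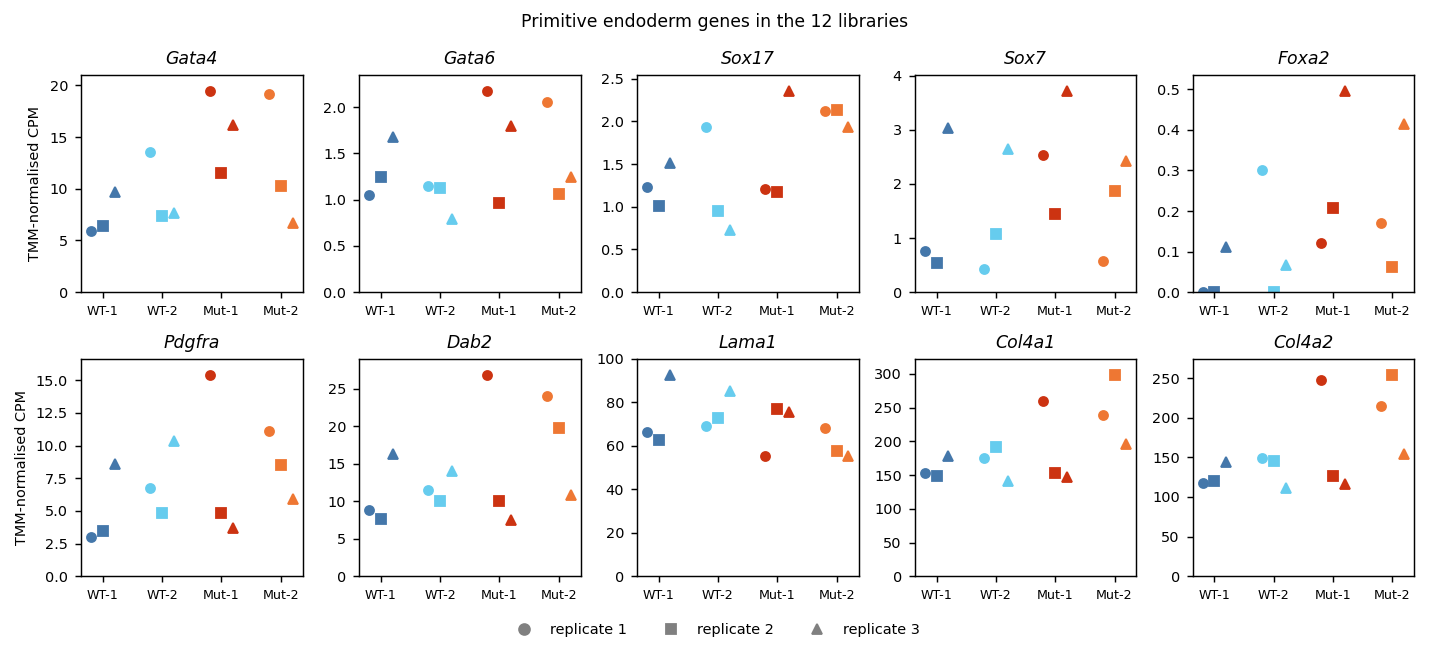
TMM-normalised CPM of the 10 genes (1 panel each, linear axes from 0) in each library, by line on the horizontal axis; symbols give the replicate number. Gata4 and Gata6 peak in replicate 1 of both mutant lines, Sox7 in replicate 3 of each of the 4 lines, and Col4a1 and Col4a2 in Mut-2 replicate 2.

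Over all 10 genes, 9 were higher in the mutant lines in the comparison of line totals and 1, Lama1, was lower. Among all 18749 genes tested, 49.8% were higher. None of the 10 passed the edgeR quasi-likelihood test after Benjamini-Hochberg adjustment, in which 0% of all genes passed. At an unadjusted p under 0.05, 5 of the 10 were higher and 0 lower, where 9.17% of all genes were higher and 3.88% lower. The median log2 fold change of the 10 genes was 0.53, and that of all genes tested was -0.002. All 10 passed the filter on low counts, Foxa2 through its mutant lines. Without Foxa2, 8 of 9 genes were higher, 4 of them at an unadjusted p under 0.05, and their median was 0.50. In none of the 10 did each mutant library lie above, or below, each wild-type library (1.33% and 0.645% of all genes did). With the share of feeder fibroblast RNA as a covariate, 4 of the 9 genes fitted were higher and their median was -0.012; that fit is described after the single genes.

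The transcription factors were described first, beginning with Gata6. Gata6, a zinc finger factor required for primitive endoderm, lies at chr18:11052064-11085635 (GRCm38, plus strand). Replicates 1 to 3 of WT-1 stood at 1.05, 1.24 and 1.68 CPM, and those of WT-2 at 1.15, 1.13 and 0.793 CPM. Mut-1 stood at 2.18, 0.966 and 1.80 CPM, and Mut-2 at 2.06, 1.06 and 1.25 CPM. In 3 mutant libraries, Mut-1 replicates 1 and 3 and Mut-2 replicate 1, Gata6 was above the highest wild-type library, and the other 3 lay within the wild-type range. Line totals averaged 1.19 ± 0.219 CPM for wild type against 1.57 ± 0.123 CPM for the mutant lines (SD, n = 2), a log2 fold change of 0.41 (SE 0.28, edgeR adjusted p = 0.582). At this level a line total held 50 to 79 counts, so the counting error alone was wide: for WT-2 the exact Poisson 95% interval ran from 0.765 to 1.36 CPM.

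Gata4, a related GATA factor that follows Gata6, lies at chr14:63198922-63271692 (minus strand). WT-1 libraries had 5.91, 6.39 and 9.69 CPM and WT-2 libraries 13.6, 7.37 and 7.67 CPM. Mut-1 libraries had 19.5, 11.5 and 16.2 CPM and Mut-2 libraries 19.2, 10.3 and 6.65 CPM. The lowest Mut-2 library lay inside the wild-type range, and WT-2 replicate 1 lay above 3 of the 6 mutant libraries. The line totals differed by a log2 fold change of 0.73 (SE 0.20, edgeR adjusted p = 0.237). The pair of lines numbered 1 gave 1.10 (SE 0.37, adjusted p = 0.322) and the pair numbered 2 gave 0.34 (SE 0.37, adjusted p = 0.730). The lines of a pair share only the number in their titles, here and below, and the labels give no other link between them. The difference between the pairs was not past the threshold (-0.76, SE 0.52, adjusted p = 0.711). DESeq2 on the line totals gave Gata4 a log2 fold change of 0.72 and an adjusted p of 0.0431, with 2.60% of all genes called. Over all alternatives to this comparison of genotypes its adjusted p ran from 0.0431 to 0.927. In the pair numbered 1, edgeR without the filter on low counts gave Gata4 an adjusted p of 0.00147. The Gata4 level over the 12 libraries had its highest Pearson correlation among these genes with Gata6 (r = 0.71), which shares both mutant peaks. This and the other correlations are descriptions over 12 libraries that share line, culture and feeders.

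Sox17, an HMG box factor of endoderm, lies at chr1:4490931-4497354 (minus strand). WT-1 libraries had 1.23, 1.01 and 1.51 CPM, WT-2 libraries 1.93, 0.951 and 0.727 CPM. Mut-1 libraries were at 1.21, 1.17 and 2.36 CPM, Mut-2 libraries at 2.12, 2.13 and 1.94 CPM. All 3 Mut-2 libraries and Mut-1 replicate 3 were above the highest wild-type library. Mut-1 replicates 1 and 2 were in the middle of the wild-type libraries. The line means were 1.24 ± 0.033 CPM for wild type against 1.82 ± 0.351 CPM for the mutant lines (SD, n = 2), a log2 fold change of 0.56 (SE 0.28, edgeR adjusted p = 0.436). By pairs, it was 0.34 (SE 0.40, adjusted p = 0.754) between the lines numbered 1 and 0.77 (SE 0.40, adjusted p = 0.392) between those numbered 2.

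Sox7, a second factor of the same SOX subgroup, lies at chr14:63943673-63950732 (plus strand), 672 kb from Gata4. WT-1 had 0.761, 0.533 and 3.03 CPM, WT-2 had 0.422, 1.07 and 2.64 CPM. Mut-1 had 2.54, 1.45 and 3.72 CPM, Mut-2 had 0.572, 1.88 and 2.42 CPM. Replicate 3 was the highest library of each of the 4 lines, and the lowest and highest of the 12 libraries differed 8.82-fold, the widest span of the 9 genes with counts in every library. The genotype difference of 0.56 (SE 0.31, edgeR adjusted p = 0.484) was smaller than this spread. With the replicate number as a term beside the line, a test chosen after these values were seen, replicate 3 was above replicate 1 by a log2 fold change of 1.64 (SE 0.42, edgeR adjusted p = 0.0669, with 1.55% of all genes past 0.05). It was above replicate 2 by 1.30 (SE 0.42, edgeR adjusted p = 0.405, with 0.00605% of all genes past 0.05). Any difference between the numbers gave Sox7 an adjusted p of 0.127 (edgeR, with 0.0605% of all genes past 0.05). What the replicate number stands for is not given, and its part in Sox7 was not tested further.

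Foxa2, a forkhead factor of endoderm and visceral endoderm, lies at chr2:148042877-148046969 (minus strand) and was close to undetected. Its counts in replicates 1 to 3 were 0, 0 and 2 in WT-1 and 5, 0 and 1 in WT-2. They were 2, 3 and 8 in Mut-1 and 3, 1 and 6 in Mut-2. In 3 libraries a count of 0 allows up to 3 counts, which is 0.168 to 0.208 CPM over the 12 libraries. Summed over lines it had 23 counts in the mutants and 8 in wild type, a ratio of 3.01 per sequencing depth with an exact 95% interval of 1.30 to 7.80 that covers counting error only. The edgeR log2 fold change on line totals was 1.56 (SE 0.63, adjusted p = 0.355). The 5 counts of WT-2 replicate 1 exceeded those of 4 of the 6 mutant libraries.

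**Figure D2:**
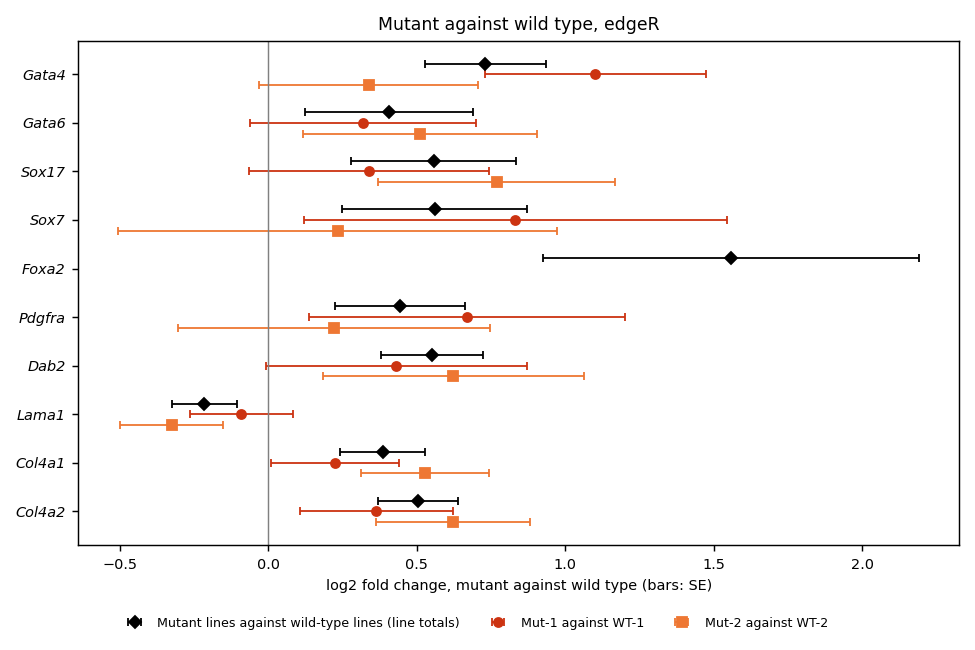
Log2 fold change of each gene (horizontal axis, bars are the standard error) from edgeR for the line totals (black) and for Mut-1 against WT-1 (red) and Mut-2 against WT-2 (orange) as pairs, fitted on 12 libraries; Foxa2 was under the count filter in the pairs. Of the 9 genes with all 3 values, Lama1 lies left of 0 in each and the other 8 right of 0, with adjusted p-values above 0.05 throughout.

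Pdgfra and Dab2 followed. Pdgfra, the receptor for PDGF and an early surface marker of primitive endoderm, lies at chr5:75152292-75198215 (plus strand). Its values were 2.98, 3.49 and 8.57 CPM for WT-1, and for WT-2 they were 6.76, 4.81 and 10.4 CPM. For Mut-1 they were 15.4, 4.83 and 3.66 CPM, and for Mut-2 11.1, 8.51 and 5.88 CPM. The genotypes overlapped over most of their range, and 2 mutant libraries, replicate 1 of each line, were above all wild-type libraries. The log2 fold change was 0.44 (SE 0.22, edgeR adjusted p = 0.433).

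Dab2 lies at chr15:6299788-6440712 (plus strand). WT-1 libraries were at 8.90, 7.63 and 16.4 CPM, WT-2 libraries at 11.5, 10.04 and 14.1 CPM. Mut-1 reached 26.9, 10.005 and 7.45 CPM, Mut-2 24.0, 19.8 and 10.9 CPM. The 3 highest of the 12 libraries were mutant, and Mut-1 replicate 3 was the lowest. Line totals averaged 11.5 ± 0.465 CPM for wild type against 16.8 ± 2.68 CPM for the mutant lines (SD, n = 2), a log2 fold change of 0.55 (SE 0.17, edgeR adjusted p = 0.261). Dab2 and Pdgfra varied together over the 12 libraries (r = 0.93).

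Because these genes moved together, the DNA just upstream of their starts was read from RefSeq's promoter windows (GRCm38.p6), which hold an entry for 5 of the 10 genes. Both windows were searched on both strands for the hexamer bound by GATA factors in its forms AGATAA with its variant AGATAG, then TGATAA with its variant TGATAG. Capitals mark a match. The Dab2 line stops just before the gene's start given above, and the Pdgfra line stops at chr5:75152250, upstream of its start at 75152292.
Dab2 (chr15:6299539-6299787, plus strand): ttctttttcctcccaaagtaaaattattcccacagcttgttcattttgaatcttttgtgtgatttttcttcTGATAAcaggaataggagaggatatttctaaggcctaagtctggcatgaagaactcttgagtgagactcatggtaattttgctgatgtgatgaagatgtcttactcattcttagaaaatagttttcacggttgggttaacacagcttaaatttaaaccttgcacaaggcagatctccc
Pdgfra (chr5:75152001-75152250, plus strand): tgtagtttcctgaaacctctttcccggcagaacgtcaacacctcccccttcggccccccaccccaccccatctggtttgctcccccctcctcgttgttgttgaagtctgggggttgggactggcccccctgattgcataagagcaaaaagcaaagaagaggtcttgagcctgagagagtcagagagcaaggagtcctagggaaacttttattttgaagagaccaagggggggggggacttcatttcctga
Dab2 had 1 match in this window and Pdgfra none. A second Dab2 window, at chr15:6386498-6386797, had 0 matches in its first 250 bases. Of 32851 such windows, 26.5% hold at least 1 of these hexamers, so a single match is common. It shows letters in a window, not a site bound in these cells.

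The basement membrane genes were the most abundant of the 10. Col4a1 (chr8:11198423-11312826, minus strand) and Col4a2 (chr8:11312805-11449287, plus strand) encode the chains that assemble into the common type IV collagen. They are transcribed away from each other, and in the annotation their first exons overlap by 22 bases, shown on the Col4a2 strand because reads from this stretch cannot be assigned without a stated strand setting.
Col4a1 and Col4a2 shared bases (chr8:11312805-11312826): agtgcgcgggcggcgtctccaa

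Col4a1 was at 153, 149 and 178 CPM for WT-1, and for WT-2 at 175, 192 and 142 CPM. For Mut-1 it was at 261, 153 and 147 CPM, and for Mut-2 at 239, 299 and 197 CPM. The 3 Mut-2 libraries and Mut-1 replicate 1 lay above the wild-type range and the other 2 inside it. The line totals gave 166 ± 6.31 CPM and 217 ± 42.2 CPM (SD, n = 2 lines), a log2 fold change of 0.38 (SE 0.14, edgeR adjusted p = 0.319).

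Col4a2 varied alike library by library, with r = 0.98 between the pair. It was at 118, 120.1 and 144 CPM for WT-1, and for WT-2 at 149.5, 145 and 111 CPM. For Mut-1 it was at 247, 127 and 117 CPM, and for Mut-2 at 215, 254 and 155 CPM. The same 4 mutant libraries were above all wild-type libraries. The line totals gave 132 ± 5.20 CPM and 187 ± 32.6 CPM (SD, n = 2 lines), a log2 fold change of 0.50 (SE 0.14, edgeR adjusted p = 0.229). In the line totals the ratio of Col4a1 to Col4a2 per kilobase was 1.12 ± 0.002 in wild type and 1.03 ± 0.021 in the mutants. The exact two-sided permutation test over the 4 lines gave p = 0.33, the smallest it can give.

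Lama1, the alpha chain of the laminin of early embryonic membranes, lies at chr17:67697259-67822647 (plus strand) and differed in the other direction. Levels were 66.1, 62.7 and 92.6 CPM for WT-1, and for WT-2 69.2, 72.7 and 85.1 CPM. They were 55.2, 77.1 and 75.7 CPM for Mut-1, and for Mut-2 68.2, 57.6 and 55.3 CPM. Below the lowest wild-type library lay 3 mutant libraries, and 0 lay above the highest. The line totals were 75.0 ± 0.534 CPM for wild type against 64.6 ± 5.17 CPM for the mutant lines (SD, n = 2), a log2 fold change of -0.22 (SE 0.11, edgeR adjusted p = 0.447). Its partners Lamb1 and Lamc1, which complete the laminin trimer, were at 0.26 (SE 0.13) and 0.23 (SE 0.12), both with an edgeR adjusted p of 0.458. Lama1 per kilobase was 0.111 ± 0.011 of Lamc1 in the wild-type lines and 0.081 ± 0.002 in the mutant lines, with an exact permutation p of 0.33. The alpha chain was thus the scarcest of the trimer's chains per length, at 7.21 CPM per kilobase against 19.1 for Lamb1 and 76.3 for Lamc1.

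In the fit of 12 libraries, whose p-values measure only the spread between libraries of a line, no gene of the set passed in any pair of lines with edgeR and the filter on low counts. Without the filter, Gata4 passed in the pair numbered 1 (adjusted p = 0.00147), and Col4a1 (0.0328) and Col4a2 (0.00598) passed in the pair numbered 2. Of 16533 genes tested, 0.327% passed in the pair numbered 1 (54 genes, 100 with the replicate number as a block) and 0.925% in the pair numbered 2 (153 genes, 328 with the block). For WT-2 against WT-1, 0.0181% passed (3 genes, 6 with the block) and for Mut-2 against Mut-1 0.26% (43 genes, 68 with the block). The difference between the pairs passed in 0.0726% (12 genes, 22 with the block). With the block, 0 of the 9 genes tested here passed in each comparison. Among the 9 genes tested, that is without Foxa2, the largest difference in the pair numbered 1 was that of Gata4. In the pair numbered 2 it was that of Sox17, followed by Dab2 at 0.62 (SE 0.44, edgeR adjusted p = 0.552) and Col4a2 at 0.62 (SE 0.26, adjusted p = 0.281). Between the wild-type lines Pdgfra differed most of these 9, with 0.54 in WT-2 against WT-1 (SE 0.53, edgeR adjusted p = 0.859).

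Feeder fibroblast RNA differed between the libraries and moved with several of the genes. The feeder list held 35 fibroblast genes without Pdgfra, Dab2, Col4a1 or Col4a2, and 34 were in the table. It took 0.774%, 0.802% and 0.986% of the counts of WT-1, and for WT-2 0.935%, 0.962% and 0.705%. For Mut-1 it took 1.82%, 0.898% and 0.755%, and for Mut-2 1.57%, 1.70% and 0.967%. Mut-1 replicate 1 and Mut-2 replicates 1 and 2 stood apart from the other 9 libraries. By line the share was 0.861% ± 0.009 for wild type against 1.29% ± 0.183 for the mutant lines (SD, n = 2; exact permutation p = 0.33). All 34 genes of the list were higher in the mutant line totals, with a median log2 fold change of 0.58. Of them, 32 were higher at an unadjusted p under 0.05 (9.17% of all genes were), and 0 passed the adjusted edgeR test. DESeq2 on the same line totals called 18 of 32 higher and edgeR without the filter called 7 of 34. With limma-voom on 12 libraries the count was 0 of 32, with or without the covariate described next. Their summed level was 7048 to 9887 CPM in wild-type libraries and 7880 to 17250 CPM in mutant libraries, and no gene of the list was at 0 throughout. Col3a1, a fibrillar collagen, was at 119 ± 4.73 CPM for wild type against 204 ± 8.67 CPM for the mutant lines. The matrix proteins Thbs2 and Postn had log2 fold changes of 0.77 and 0.73 (edgeR adjusted p = 0.102 for all 3).

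**Figure D3:**
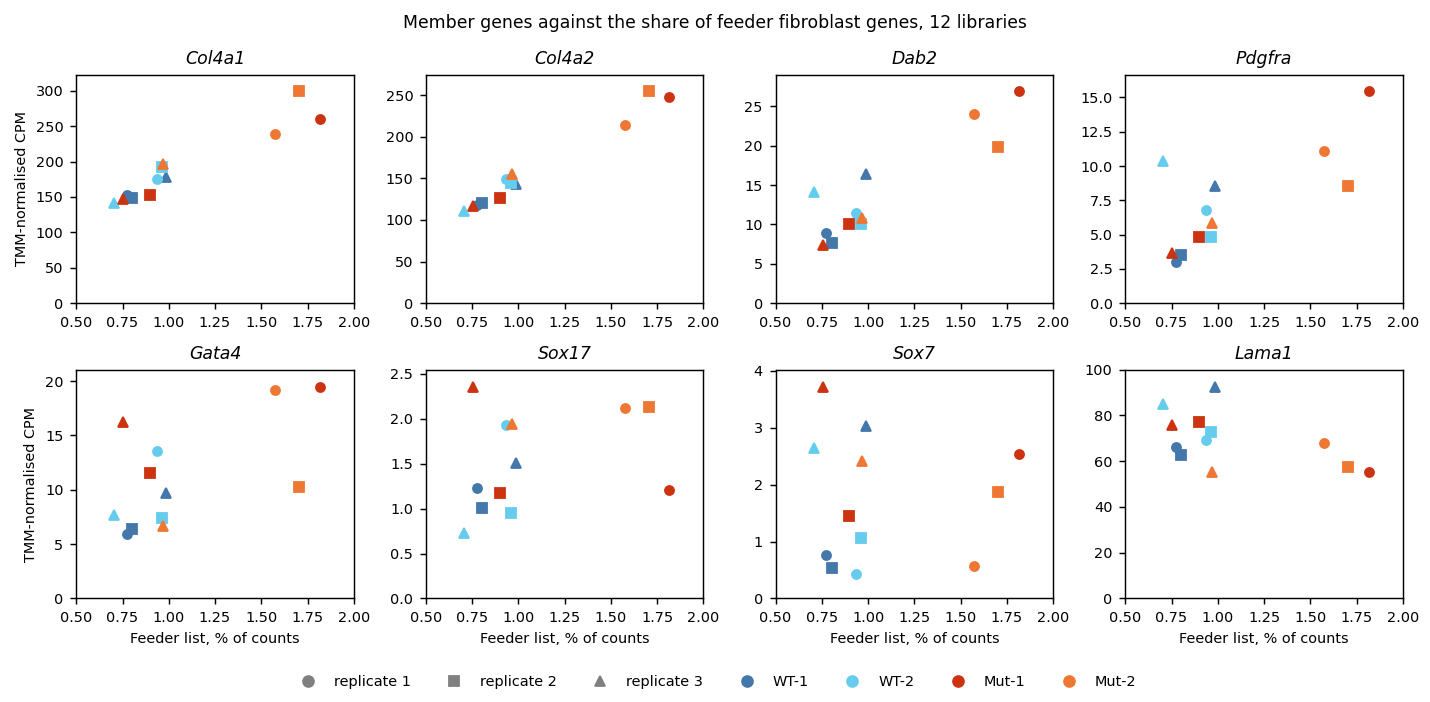
TMM-normalised CPM (vertical axes, linear from 0) of 8 of the genes against the percentage of counts on the feeder fibroblast list (horizontal axes, from 0.5%) in the 12 libraries; colours give the line and symbols the replicate number. Col4a1, Col4a2 and Dab2 have their 3 highest values in the 3 libraries of highest feeder share, Sox7 does not follow the share, and Lama1 is highest among libraries under 1%.

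The 10 genes differed in how far they followed this share. Against its log2, the Pearson r over 12 libraries was 0.99 for Col4a2, 0.96 for Col4a1, 0.86 for Dab2 and 0.69 for Pdgfra. It was 0.57 for Gata4, 0.53 for Gata6, 0.36 for Sox17, -0.07 for Foxa2 and -0.53 for Lama1, and for Sox7 it rounded to 0. The 3 libraries of highest share were the 3 highest for Col4a1, Col4a2 and Dab2. For Lama1 they ranked 7, 10 and 12 of the 12 libraries.

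The genotype was then fitted on the 12 libraries with limma-voom, the line being a random block, with and without the feeder share in percent as a covariate. The estimated correlation between libraries of a line was -0.002 without the covariate and 0.063 with it. The block thus carried little weight, and the 12 libraries counted nearly as independent. SEs and p-values of these fits measure the spread between libraries rather than between lines. Without it, Col4a1 was at a log2 fold change of 0.34 (SE 0.16) and Col4a2 at 0.43 (SE 0.18). With it they were at -0.024 (SE 0.10) and -0.012 (SE 0.08). Dab2 went from 0.43 (SE 0.30) to -0.23 (SE 0.23) and Pdgfra from 0.40 (SE 0.36) to -0.26 (SE 0.37). Of the 4 transcription factors fitted (Foxa2 was below the filter), all had positive values in both fits: Gata4 went from 0.68 (SE 0.27) to 0.41 (SE 0.34) and Gata6 from 0.35 (SE 0.26) to 0.15, less than its SE of 0.33. Sox17 was at 0.57 (SE 0.27) and 0.59 (SE 0.35), and Sox7 at 0.72 (SE 0.52) and 1.05 (SE 0.64). Lama1 was at -0.22 (SE 0.12) and -0.10 (SE 0.15). None of the 9 genes fitted passed in either fit, in which 1.44% and 0.204% of all genes passed.

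Leaving the 3 libraries out gave much the same values. In limma-voom Col4a1 was at 0.004 (SE 0.13), Col4a2 at 0.02 (SE 0.13), Dab2 at -0.25 (SE 0.26) and Pdgfra at -0.24 (SE 0.40). Gata4 was at 0.40 (SE 0.31), Sox17 at 0.58 (SE 0.35) and Sox7 at 1.13 (SE 0.58), and 0.0927% of all genes passed, none of them in the set. This left 1 library of Mut-2 and 2 of Mut-1. For Gata4 in Mut-2 against WT-2 the direction turned, to -0.53 in the edgeR fit of pairs, on that single library.

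**Figure D4:**
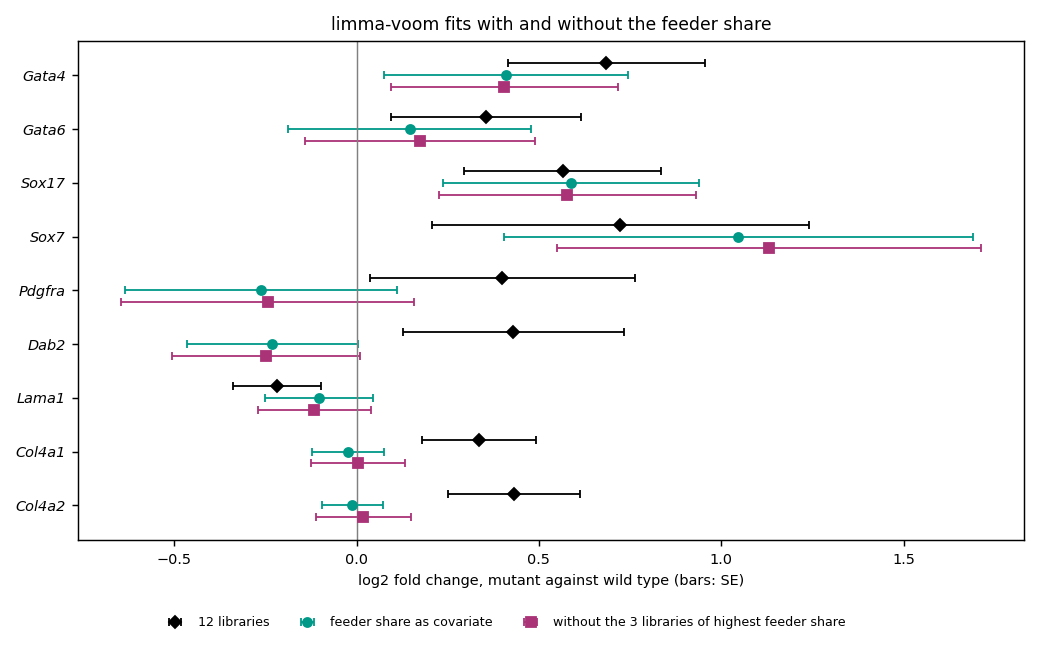
Log2 fold change of mutant against wild type (horizontal axis, bars are the standard error) for 9 genes in limma-voom on 12 libraries (black), with the feeder share in percent as covariate (green), or leaving out the 3 libraries with the highest share (purple). Col4a1 and Col4a2 move from 0.34 and 0.43 to -0.024 and -0.012 with the covariate, Dab2 and Pdgfra move below 0, and Sox17 and Sox7 stay above it.

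Gata4 and Sox7 lie on chromosome 14, and so does Tinf2. On this chromosome 375 of 385 genes of at least 5 CPM were higher in the mutant lines, at a median log2 value of 0.37, where the other autosomes had -0.043. Gata4 exceeded its chromosome's median by 0.37 and Sox7 exceeded it by 0.19. Within 2 Mb of Gata4, 22 of 23 other genes were higher, with a median of 0.40 and a range from -0.22 to 1.36, and 3 of them had larger values than Gata4. Around Sox7, 20 of 22 were higher, with a median of 0.39. By pair, the median around Gata4 was 0.27 for the lines numbered 1 and 0.52 for those numbered 2, where Gata4 itself had 1.10 and 0.34. The part of the shared shift in the values of Gata4 and Sox7 was not tested. On chromosome 8, which holds Col4a1 and Col4a2, the median was -0.18 in the mutants, and the wild-type lines differed there too, by 0.18 in WT-2 against WT-1.

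**Figure D5:**
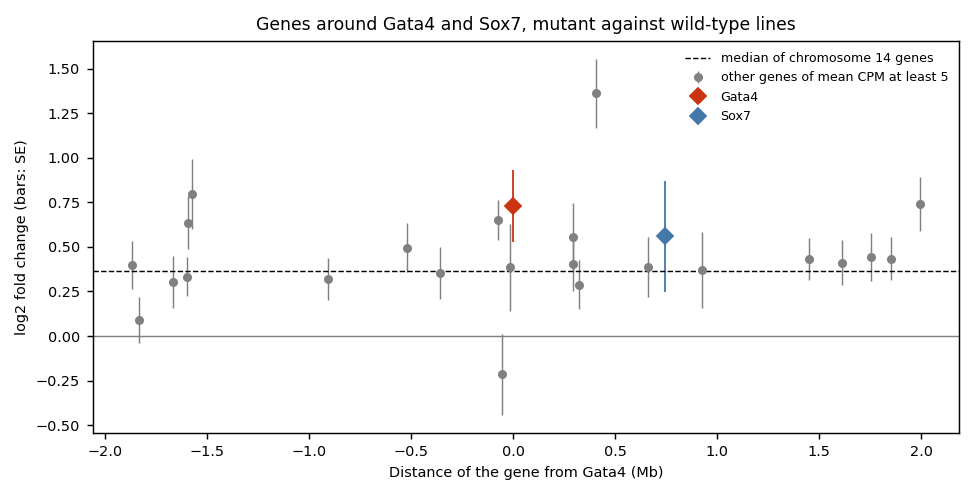
Log2 fold change of mutant against wild-type line totals (vertical axis, bars are the standard error) for Gata4, Sox7 and the other genes of at least 5 CPM within 2 Mb, against their distance from Gata4 in Mb; the dashed line is the chromosome 14 median of 0.37. Nearly all genes lie above 0, and Gata4 at 0.73 and Sox7 at 0.56 lie above the dashed line, among other genes of the interval.

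The wider programme was read from lists of related genes. Of 28 other genes of extraembryonic endoderm tested, 19 were higher and 9 lower in the mutants, 4 and 1 at an unadjusted p under 0.05, with a median of 0.23. Over all genes 9.17% were higher and 3.88% lower at that level, which applies to each list here. The edgeR test with its filter called 0 genes of this or any other list after adjustment, and other tools called some, as given for each list. In this one DESeq2 called Thbd higher and Rhox5 lower, and limma-voom on 12 libraries, like edgeR without the filter, called Rhox5 alone. Thbd, thrombomodulin of parietal endoderm, was at 9.99 ± 1.72 CPM for wild type against 17.1 ± 0.398 CPM for the mutant lines (edgeR adjusted p = 0.186). Sparc, a matrix glycoprotein of parietal endoderm and of fibroblasts, was at 1042 ± 37.9 and 1341 ± 88.0 CPM (adjusted p = 0.244). Rhox5, an X-linked homeobox gene used in extraembryonic tissue, was the gene of the list with the largest difference, at 6.03 ± 1.88 and 1.37 ± 0.011 CPM (SD, n = 2 lines; adjusted p = 0.102). Of 27 other genes of the basement membrane, its receptors and collagen processing, 24 were higher and 3 lower. At an unadjusted p under 0.05 they were 7 and 0, and the median of the 27 was 0.25. Lama4 (0.69), Agrn (0.51) and Itgb1 (0.44) had the smallest p-values among them. DESeq2 called Lama4 and Agrn higher, and limma-voom called Agrn. Neither passed in limma-voom with the feeder covariate. Sparc, Lamb1 and Lamc1 are in both lists. The feeder share was higher in the mutant lines, as given above, and its part in both lists was not tested.

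A list of the FGF and ERK route also held feedback genes and targets of ERK. Of its 19 genes, 8 were higher and 11 lower (1 and 2 at an unadjusted p under 0.05), with a median of -0.01. Spry2, a feedback inhibitor of receptor tyrosine kinases on chromosome 14, was at 89.5 ± 2.98 CPM for wild type against 209 ± 27.5 CPM for the mutant lines (edgeR adjusted p = 0.0818). Etv4, a transcription factor induced by ERK, was lower, at 64.6 ± 4.60 and 40.0 ± 10.6 CPM (adjusted p = 0.223). DESeq2 called Spry2 higher and Etv4 lower. Spry2 was also called by edgeR without the filter and by limma-voom, with the feeder covariate (adjusted p = 0.00721) and without it (0.00115). The adaptor Shc1 had a log2 fold change of -0.29. Of 15 epiblast and pluripotency genes, 6 were higher and 9 lower, with a median of -0.02. Klf5 (0.50), also on chromosome 14, Nr0b1 (0.37) and Dppa3 (-0.63) had the smallest p-values, and DESeq2 and limma-voom called Klf5 higher, though not with the covariate. Of 9 definitive endoderm genes, 4 were higher and 5 lower, with a median of -0.01. Hhex, a homeobox factor of anterior endoderm, was at 13.3 ± 2.02 and 8.18 ± 0.393 CPM (SD, n = 2 lines; adjusted p = 0.223), and DESeq2 called it lower, alone in this list. Cldn6 was at a log2 fold change of -0.39 and Cxcr4 at 0.48.

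Markers of other cell types were counted in the same way. Of 8 endothelial genes tested, 4 were higher and 4 lower, and the list's summed level was 109 to 132 CPM in wild-type and 124 to 155 CPM in mutant libraries. Levels within this list differed widely. Mean Cdh5 was 0.125 CPM (0.030 CPM per kilobase). Eng was at 72.9 CPM in the wild-type and 81.7 CPM in the mutant line totals, and Tek at 22.5 and 21.5 CPM. Of 9 genes of cardiac mesoderm, a tissue that also uses Gata4 and Gata6, 7 were higher and 2 lower, with a summed level of 17.1 to 24.7 and 18.8 to 27.3 CPM. Of 8 trophoblast genes, 3 were higher and 5 lower, with 78.3 to 129 and 49.3 to 84.3 CPM. All 7 blood and macrophage genes tested were higher, with 35.1 to 57.9 and 40.3 to 63.5 CPM. The median log2 fold change was 0.05 for endothelium, 0.37 for cardiac mesoderm, -0.07 for trophoblast and 0.70 for blood and macrophages. At an unadjusted p under 0.05, in the same order, 2, 1, 0 and 3 genes were higher and 1, 1, 2 and 0 lower. In these 4 lists DESeq2 called Plvap of endothelium and Ascl2 and Tfap2c of trophoblast lower, and limma-voom called Plvap and Tfap2c. No gene of these lists was at 0 in every library.

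Genes whose log2(CPM + 0.5) was most like each of the 10 over the 12 libraries were named from 13195 genes of at least 2 CPM. For Col4a2 they were Col1a2 (r = 0.99), Col4a1 and Fbln2 (0.98), and for Col4a1, after Col4a2, they were Fkbp10 (0.98) and Col8a1 (0.97). Dab2 was nearest to Iglon5, Cflar and Vcam1 (each 0.97) and Pdgfra to S1pr3 (0.97), Ednra and Itga4 (0.96). Gata4 was nearest to Atp2a3 (0.96), Cyp27a1 (0.95) and Cfap45 (0.94), and Gata6 to Pag1, Stx2 and Iffo1 (0.85 to 0.86). Sox7 was nearest to Pgrmc1 (0.97), Ube2e1 (0.94) and Sqstm1 (0.93), and Sox17 to Cd55, Psmd8 and Npr1 (each 0.82). Lama1 was nearest to Amacr (0.89), Rad9b (0.88) and Reps1 (0.87), and Foxa2 to Tmem55b (0.92), Snx3 (0.88) and Tox4 (0.87). The highest of many correlations over 12 libraries is large by selection. Within the set, Pearson r between pairs ran from 0.98 for Col4a1 with Col4a2 to -0.58 for Lama1 with Col4a1, and Sox7 stayed between 0.01 and 0.35 with each of the other 9.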

How the data were processed

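The authors deposited whole-number counts of reads per gene, with 1 column per library. Per the submitters' processing notes, the tools were HTSeq 0.6.0, HISAT2 2.1.0, Bowtie2 2.2.3 and bcl2fastq, on GRCm38. No role is given for each tool, and neither the annotation nor whether counting used strand is given in the sources used here. Genes and lists were chosen with earlier results of these data known. The 10 genes were all described, and up to 3 genes of the larger lists with the smallest p were named. Genes of 4 cell type lists were named only where an alternative called them, a choice made after values were seen. Cdh5, Eng and Tek were exceptions, given for their levels. Counts were summed per line and tested with edgeR 4.0.16 (R 4.3.3; TMM, filterByExpr, quasi-likelihood test, Benjamini-Hochberg, threshold 0.05). Pairs of lines were fitted on 12 libraries; limma 3.58.1 and DESeq2 1.42.0 were alternatives. Scripts were tested on simulated data. Positions and exon lengths came from GENCODE on GRCm38, matched by name for 27263 symbols and by RefSeq name for 158. Same-number libraries deviated together between WT-1 and WT-2 (r 0.136 to 0.531), Mut-1 and Mut-2 (0.169 to 0.451) and WT-2 and Mut-2 (0.106 to 0.628). They did so too between WT-2 and Mut-1 (0.215 to 0.370). WT-1 with Mut-1 ran from -0.108 to 0.178, and WT-1 with Mut-2 from -0.216 to -0.070. All same-number r were over 0.1, the rule used for pairing, in each comparison but those of WT-1 with a mutant line. Libraries of different numbers could be closer: WT-1 replicate 1 had 0.270 with WT-2 replicate 2 and 0.136 with WT-2 replicate 1. By this rule the numbers do not pair the libraries across all 4 lines. Some libraries of the same number were still close between lines. The chi-square per degree of freedom was 10.8 for WT-1 replicate 3 with WT-2 replicate 3, against 42.4 with WT-1 replicate 1. For WT-1 replicate 1 with WT-2 replicate 1 it was 35.9. Whether libraries of the same number share a batch was not tested, and no label says what the numbers stand for.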

Additional observations from a re-analysis of the deposited data

Results flagged for a closer look

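Of 22 groups of 6 libraries checked with Dixon's test (the 10 genes and the feeder share in each genotype), 1 had a library far from the others; chance alone gives about 1 in 20. It was Foxa2 in wild type, where WT-2 replicate 1 had 0.302 CPM and the next library 0.112 CPM. The gap took 0.629 of the group's range, with a critical value of 0.625. These values rest on 5 and 2 counts.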

How the results depend on the processing

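Foxa2 rested on 31 counts in all. On line totals, 0 genes passed in the edgeR test (2447 at an unadjusted p under 0.05), 1 with RLE size factors, 77 without the count filter and 360 with DESeq2. On single libraries, limma-voom had 226 past the threshold, 32 with the feeder covariate and 15 leaving out the 3 libraries with the highest feeder share. Of the 10 genes, DESeq2 called 1 (Gata4). Their median was -0.012 with the covariate (4 of 9 higher), 0.018 in limma-voom without these (6 of 9) and 0.13 in edgeR line totals without them (7 of 10), the last chosen after seeing the data.

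Signs turned with the covariate for Pdgfra (-0.26), Dab2 (-0.23), Col4a1 (-0.024), Col4a2 (-0.012) and Lamb1 (-0.14). They turned without the 3 libraries in limma-voom for Pdgfra (-0.24), Dab2 (-0.25) and Lamb1 (-0.12), and in edgeR for Pdgfra (-0.29), Dab2 (-0.23), Lamb1 (-0.051) and Dppa3 (0.029). In the pair Mut-1 against WT-1 without the 3 libraries they turned for Pdgfra (-0.24), Dab2 (-0.33), Col4a1 (-0.093), Col4a2 (-0.063) and Lama1 (0.049), and in Mut-2 against WT-2 for Gata4 (-0.53), Pdgfra (-0.32) and Dab2 (-0.14). With WT-1 replicates 1 and 2 as 1 library, WT-2 against WT-1 turned for Dab2 (-0.042) and Lama1 (-0.051). The causes were not tested.

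Pairs without the count filter had 543, 966, 201 and 270 genes past the threshold (Mut-1 against WT-1, Mut-2 against WT-2, WT-2 against WT-1, Mut-2 against Mut-1) and 302 for the difference, with 1 gene of the set in the first (Gata4, adjusted p = 0.00147) and 2 in the second (Col4a1, 0.0328, and Col4a2, 0.00598). The replicate block gave 100, 328, 6, 68 and 22 and changed no call in the set. Merging WT-1 replicates 1 and 2 gave 15, 52 and 1 in the first 3 pairs and 3 for the difference. Without the 3 libraries, Mut-2 against WT-2 and Mut-2 against Mut-1 had 1 gene each and the difference 0.

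Leaving out 1 library or line at a time, the line totals had 0 to 158 genes past the threshold, 0 to 1 of the 10 (Col4a2 without Mut-1, adjusted p = 0.0340, its highest over all alternatives being 0.983), a median of 0.32 to 0.64 over the 9 or 10 genes tested, and 8 to 9 higher, all but Lama1 in each case (Foxa2 was tested in 8 of the 16 fits). A line left out sets 1 line against 2. The pairs in the order above had 16 to 447, 9 to 234, 0 to 42 and 3 to 70 genes and the difference 2 to 72, with 0 of the set. Signs turned as follows. Mut-1 against WT-1 ranged from -0.095 to 0.35 for Col4a1, -0.065 to 0.53 for Col4a2, -0.33 to 0.84 for Dab2 and -0.24 to 1.30 for Pdgfra, the lowest each without Mut-1 replicate 1. It ranged from -0.20 to 0.10 for Lama1 and -0.087 to 0.50 for Sox17. Mut-2 against WT-2 ranged from -0.17 to 0.66 for Gata4, -0.019 to 0.55 for Pdgfra and -0.21 to 1.10 for Sox7. WT-2 against WT-1 ranged from -0.016 to 0.20 for Col4a1, -0.092 to 0.52 for Dab2, -0.069 to 0.23 for Lama1, -0.57 to 0.20 for Sox17 and -0.95 to 1.07 for Sox7. Mut-2 against Mut-1 ranged from -0.0098 to 1.05 for Dab2, -0.51 to 0.055 for Gata6 and -0.25 to 0.99 for Pdgfra. The difference between the pairs ranged from -0.22 to 0.94 for Dab2, -0.14 to 0.43 for Gata6, -1.08 to 0.45 for Pdgfra and -1.75 to 0.27 for Sox7.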
